A study of Cyprinodon variegatus with 4 samples.

Results

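Proteins that copy DNA and divide cells were followed in whole-larva RNA of the sheepshead minnow (Cyprinodon variegatus), an estuarine fish that is kept as a test species for water pollutants. An annotation, the protein description that the deposited table gives a contig (an assembled transcript), was a member if it began with any of 13 wordings. These name cyclins and cyclin-dependent kinases, MCM licensing factors, DNA polymerases, proliferating cell nuclear antigen, replication factor C, DNA topoisomerases, ribonucleotide reductase, Aurora kinases, cell division cycle proteins, condensins and centromere proteins. The wordings took 103 of 12844 annotations, carried by 173 contigs. Of these, 61 averaged 1 FPKM or more across the 4 libraries and entered the comparisons, and 42 lay below this minimum. FPKM divides the fragments of a transcript by its length and by the library's mapped total, so levels can be set side by side between genes.

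Each of the 4 libraries stood for 1 group. They came from larvae with no treatment, from larvae in the surfactant Tween 80 at 0.001%, and from larvae kept with PET (polyethylene terephthalate, a polyester) microfibres at 10 or 100 mg/L. All were whole-body samples with an exposure of 10 days, and the labels give a stage of 72 h after fertilization, which the growth protocol places at the start of exposure. The sources used here do not give whether Tween 80 was also in the fibre suspensions, or how many larvae made up a library. Each PET library was compared with the surfactant control and with the untreated control. With 1 library per group there is no replicate error, so every difference is between libraries and has no p-value.

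A dividing cell first licenses its replication origins by loading the MCM helicase, which opens the double helix. Polymerases alpha, delta and epsilon then copy both strands. Delta and epsilon are held to the template by the ring-shaped clamp PCNA, which replication factor C loads. Ribonucleotide reductase supplies the deoxynucleotides and topoisomerase 2 untangles the copies. Cyclins, named for their rise and destruction in each cycle, switch on cyclin-dependent kinases, and condensins and centromere proteins ready the chromosomes for separation. Many transcripts of this machinery are made mainly in cycling cells, so in a whole larva they come from growing tissues. Other cyclins and kinases of the same families regulate transcription or act in cells that no longer divide.

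The libraries were alike in total FPKM, from 1039707 in the control to 1080208 at 10 mg/L PET. FPKM keeps no read counts, but ratios between low contigs heaped at a fixed step, which put the depth at 78.3% of the control's with Tween 80, 83.9% at 10 mg/L and 79.1% at 100 mg/L. Absolute depth, and with it the counting error of a value, is unknown. Markers of a whole larva were present, with summed levels of 18974 to 23157 FPKM for 7 skeletal muscle annotations, lowest at 10 mg/L, and 150.8 to 222 FPKM for 10 liver annotations, lowest in the control. The summed level of 9 lens annotations ran from 6365 to 8498 FPKM, of 8 epidermal ones from 9424 to 10576, of 18 of the exocrine pancreas from 19812 to 21627 and of 4 erythroid ones from 290.2 to 398. The brain list matched 1 annotation, at 0.18 to 0.43 FPKM. Germ line and meiosis markers, another source of dividing cells, were near the floor, with 1 of 16 annotations above 1 FPKM and sums of 4.15 FPKM in untreated larvae, 7.14 with Tween 80, 5.62 at 10 mg/L and 6.65 in the 100 mg/L library.

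The members were moderately expressed. Their median level was 5.93 FPKM, beside 6.27 for all 7421 annotations above the minimum, and 24 stood at 10 FPKM or more, 24 from 3 to under 10 and 13 from 1 to under 3. Together the 103 annotations held 814 FPKM in untreated larvae, 776 with Tween 80, 769.9 at 10 mg/L and 813 in the 100 mg/L library. These sums are 0.0783%, 0.0729%, 0.0713% and 0.0768% of the library totals. Of the 61 compared, 31 were assigned by hand to replication and division, and 30 with a similar name to transcription, repair, neurons or elsewhere. The first group includes topoisomerase 2-beta and the reductase subunit RRM2B, which are not limited to dividing cells. The second includes a ribonucleotide reductase chain annotated from a poxvirus entry. The first group summed to 406, 372, 357 and 394 FPKM in the control, the surfactant control, 10 mg/L and 100 mg/L, and the second to 393, 392, 399 and 399. The sum of the replication and division proteins was highest in the untreated control and lowest at 10 mg/L, while that of the like-named proteins was nearly level. PCNA made up most of the first group's gap between 10 mg/L and the surfactant control, as its other 30 proteins summed to 301, 273, 272 and 294 FPKM in the 4 libraries. In the second group cyclin I alone held 127, 119.7, 124 and 118 FPKM. That group was not summed without cyclin I, so its level sum may rest on this protein. In RNA from whole larvae, fewer dividing cells and less of each RNA per cell cannot be told apart.

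**Figure D1:**
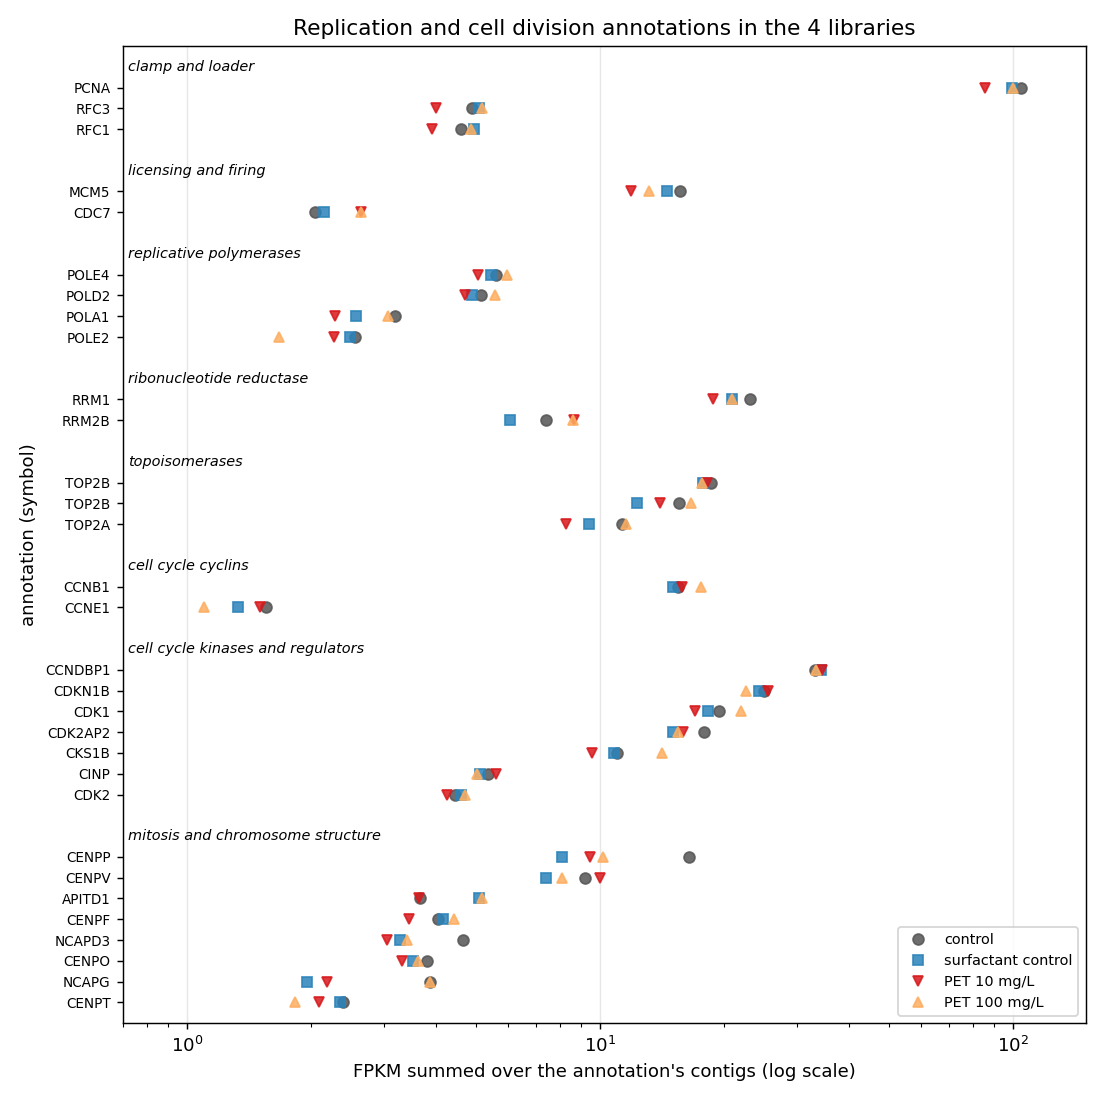
Level in FPKM (log scale) of the replication and division proteins above the minimum, by role, with 1 point for each of the 4 libraries. PCNA, at 85.8 to 104.7 FPKM, is the highest, and the 4 points of a protein mostly lie close together, those of CENPP and NCAPG being the widest apart.

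PCNA, the sliding clamp, was the most abundant replication protein, above 94.4% of the 7421 annotations that passed the minimum. It stood at 104.7 FPKM in untreated larvae, 99.4 with Tween 80, 85.8 at 10 mg/L and 100.2 in the 100 mg/L library. The 10 mg/L library was the lowest, at 86.3% of the surfactant control, and the other 3 lay closer together. The subunits of the clamp loader had the same lowest library. RFC3 was at 4.91, 5.08, 4.01 and 5.17 FPKM in the control, the surfactant control, 10 mg/L and 100 mg/L, an order kept for every list of 4 values that follows. RFC1, the large subunit, was at 4.6, 4.94, 3.92 and 4.88 FPKM. For both loader subunits the other 3 libraries lay close together, and the 10 mg/L library was at 78.9% of the surfactant control for RFC3 and 79.4% for RFC1.

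Of the licensing proteins, MCM5, a subunit of the helicase ring, was at 15.6, 14.5, 11.9 and 13.2 FPKM under its main annotation. A second MCM5 annotation, matched to another species' entry, was listed at 0 in both libraries without fibres and stood at 1.98 FPKM at 10 mg/L and 1.01 at 100 mg/L. Added together the MCM5 entries gave 15.6, 14.5, 13.9 and 14.2 FPKM, still lowest at 10 mg/L but with a smaller gap. MCM4 was above 0 only in the surfactant control, at 0.47 FPKM. MCM2, MCM3, MCM6 and MCM7 were not analysed here, as the wordings took no annotation for them. CDC7, the kinase that fires licensed origins, was at 2.04, 2.14, 2.64 and 2.64 FPKM. Its main contig was at 2.04, 2.14, 1.59 and 2.64, lowest at 10 mg/L, and a second contig, at 1.05 FPKM in that library and listed at 0 in the others, makes up the sum.

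The replicative polymerases were expressed at low levels, from 1.67 to 5.94 FPKM. POLA1, the catalytic subunit of the polymerase that starts each strand, was at 3.19, 2.56, 2.28 and 3.07 FPKM. POLD2, an accessory subunit of polymerase delta, was at 5.15, 4.91, 4.72 and 5.58 FPKM, and POLE4, a small subunit of polymerase epsilon, at 5.61, 5.46, 5.07 and 5.94. These 3 were lowest at 10 mg/L. POLE2, the second subunit of polymerase epsilon, was lowest at 100 mg/L, at 2.55, 2.48, 2.27 and 1.67 FPKM.

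Ribonucleotide reductase showed a split between its subunits. RRM1, the large catalytic subunit, was at 23.1, 20.9, 18.8 and 20.8 FPKM, highest in the control and lowest at 10 mg/L. RRM2B, the small subunit known in mammals for serving repair and non-dividing cells, was at 7.41, 6.05, 8.65 and 8.60 FPKM. It was higher in both PET libraries than in either library without fibres, with log2 ratios of 0.48 and 0.47 over the surfactant control at 10 and 100 mg/L, short of 1.5-fold. Its main contig was at 6.10, 6.05, 6.90 and 7.42 FPKM, also higher in both PET libraries. A second contig, at 1.31, 0, 1.75 and 1.18 FPKM and listed at 0 in the surfactant control alone, adds to these ratios. RRM2, the small subunit of S phase, was listed at 0 in every library. A further small chain, annotated from a poxvirus entry, was at 1.27, 0.50, 0.68 and 1.92 FPKM.

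Topoisomerase 2-alpha (TOP2A), the form of dividing cells, was at 11.3, 9.41, 8.28 and 11.6 FPKM. The surfactant control was at 83.1% of the untreated control, the 10 mg/L library at 73.1% and the 100 mg/L library at 101.9%. Against the surfactant control the 10 mg/L library was at 88.0%. The beta form, which cells express whether or not they divide, was annotated under a pair of entries. One was at 18.6, 17.8, 18.2 and 17.7 FPKM, nearly level, and the other at 15.5, 12.3, 14.0 and 16.6, lowest in the surfactant control. The alpha and beta forms therefore did not share a lowest library.

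Among the mitotic regulators, CDK1, the kinase that drives entry into mitosis, was at 19.4, 18.2, 16.96 and 22.0 FPKM. Its partner cyclin B1 was at 15.4, 15.0, 15.8 and 17.6 FPKM, and CKS1B, the small subunit that docks on these kinases, at 10.99, 10.8, 9.58 and 14.2. All 3 were highest at 100 mg/L, with log2 ratios over the surfactant control of 0.26, 0.22 and 0.37. At 10 mg/L CDK1 and CKS1B were at their lowest, and cyclin B1 was not. CDK2, the S phase kinase, varied less, at 4.46, 4.6, 4.25 and 4.72 FPKM.

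The regulators of G1 and of exit from the cycle had no shared order of libraries. CDKN1B (p27), an inhibitor of CDK2, was at 24.9, 24.2, 25.6 and 22.6 FPKM, with its minimum at 100 mg/L, where CDK1 was highest. CCNDBP1, which binds cyclin D1, was at 33.2, 34.2, 34.4 and 33.4 FPKM. CDK2AP2 was at 17.9, 15.0, 15.9 and 15.4, and CINP, a protein that binds CDK2, at 5.36, 5.12, 5.61 and 5.04. Cyclin E1, the partner of CDK2, was at 1.55, 1.33, 1.5 and 1.10 FPKM. Cyclin D1 was below the minimum, at 0.46, 0.19, 0.23 and 0.92 FPKM, as was cyclin A1 at 0.10, 0.13, 0.15 and 0.21. Cyclin D2 and CDKN1A (p21), another inhibitor of these kinases, were listed at 0 throughout, and cyclin A2 was not analysed here.

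**Figure D2:**
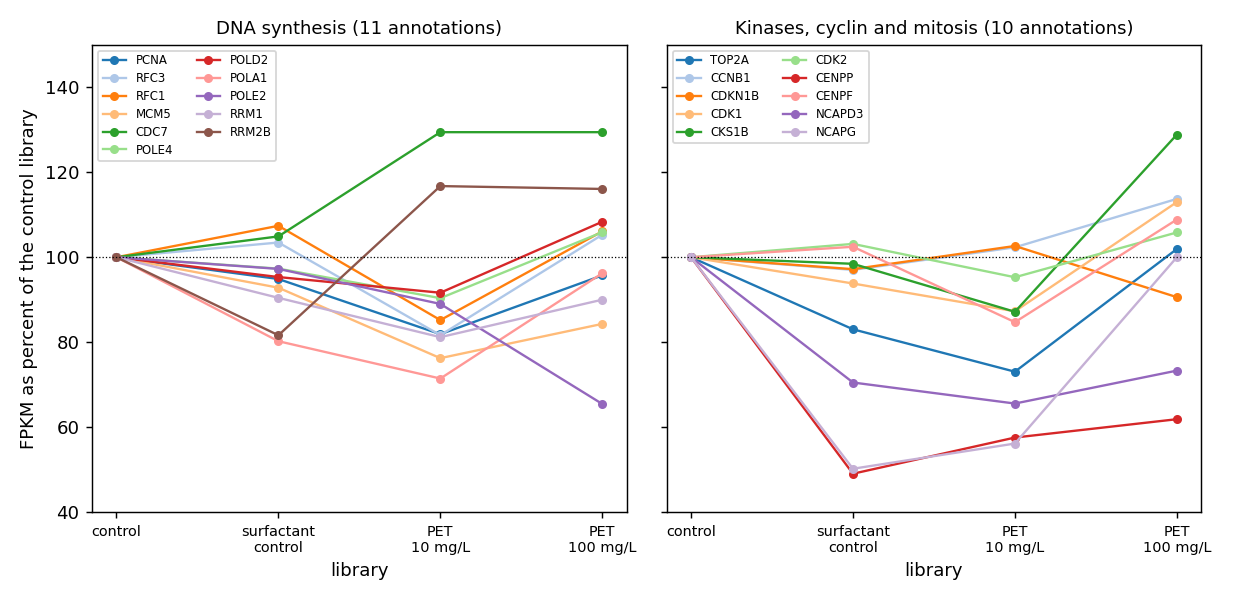
Level as a percentage of the untreated control in the 4 libraries, at left for all the DNA synthesis proteins. At right are TOP2A and a selection by hand of the proteins of mitosis and cell cycle control, so that panel does not stand for all of them. The axis does not start at 0, lines join the libraries for reading only, and most lines at left dip at 10 mg/L PET, where PCNA is at 81.9% and MCM5 at 76.3% of the control, while CENPP and NCAPG at right drop in the surfactant control.

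The chromosome proteins held the 2 proteins of the replication and division group with the largest differences. CENPP, a centromere protein of the inner kinetochore, was at 16.5 FPKM in untreated larvae and 8.08 with Tween 80, 49.1% of the former, with 9.48 at 10 mg/L and 10.2 at 100 mg/L. NCAPG, a subunit of the condensin I complex, was at 3.88, 1.95, 2.18 and 3.88 FPKM. CENPP was thus low in all 3 treated libraries, whereas NCAPG was at the control's level at 100 mg/L, so its log2 ratio was -0.84 for the surfactant control over the control and 0.84 for 100 mg/L over the surfactant control. NCAPD3, a subunit of condensin II, was at 4.65, 3.28, 3.05 and 3.41 FPKM, also highest in the control.

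Of the other centromere proteins, CENPF, which cells make in G2 and mitosis, was at 4.06, 4.16, 3.44 and 4.42 FPKM. CENPS was at 3.67 and 3.64 FPKM in the control and at 10 mg/L but at 5.08 and 5.19 in the surfactant control and at 100 mg/L. CENPO was at 3.80, 3.53, 3.32 and 3.62, CENPT at 2.39, 2.35, 2.09 and 1.82, and CENPV at 9.21, 7.38, 9.99 and 8.11 FPKM. They did not share a direction. Aurora kinase B, which corrects chromosome attachment, was above 0 in the surfactant control and at 100 mg/L alone, at 0.24 and 0.23 FPKM, and Aurora kinase A was not analysed here.

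The library in which a protein stood lowest summarises these values. Among all 7421 annotations the control was lowest for 29.3%, the surfactant control for 29.5%, the 10 mg/L library for 23.1% and the 100 mg/L library for 16.3%. Of the 31 replication and division proteins, the control was lowest for 2, the surfactant control for 7, the 10 mg/L library for 16, which is 51.6%, and the 100 mg/L library for 6. Those 16 are PCNA, RFC1, RFC3, MCM5, POLA1, POLD2, POLE4, RRM1, TOP2A, CDK1, CDK2, CKS1B, CENPF, CENPO, CENPS and NCAPD3. CENPS is among them by 3.64 against 3.67 FPKM in the control. With its second entry added, CENPS was at 3.97, 5.2, 4.15 and 5.8 FPKM, lowest in the control. Of the 11 proteins of DNA synthesis (clamp and loader, licensing, replicative polymerases, RRM1 and RRM2B) the 10 mg/L library was lowest for 8. The 30 like-named proteins had their lowest value in the control for 8, the surfactant control for 9, 10 mg/L for 6, which is 20%, and 100 mg/L for 7. Over all 61 members the 10 mg/L library was lowest for 22, which is 36.1%. With median-of-ratios scaling of the libraries, it was lowest for 34.4% of the 61, and the 100 mg/L library for 36.1%. The split into these groups was made by hand, with earlier results of these data known. Some like-named members carry a Gene Ontology term (a function label in the deposited table) of cell division or cell cycle. These are cyclin T2, cyclin Y, cyclin K, CDK20, PAPD7 and CCAR1, and none of them was lowest at 10 mg/L. The gaps were small, the median of the 16 standing at 90.3% of the next lowest library, beside 93.0% for all 1712 annotations lowest at 10 mg/L. Proteins of a shared process vary together, so these counts hold fewer independent observations than names, and it is 1 library that they describe.

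**Figure D3:**
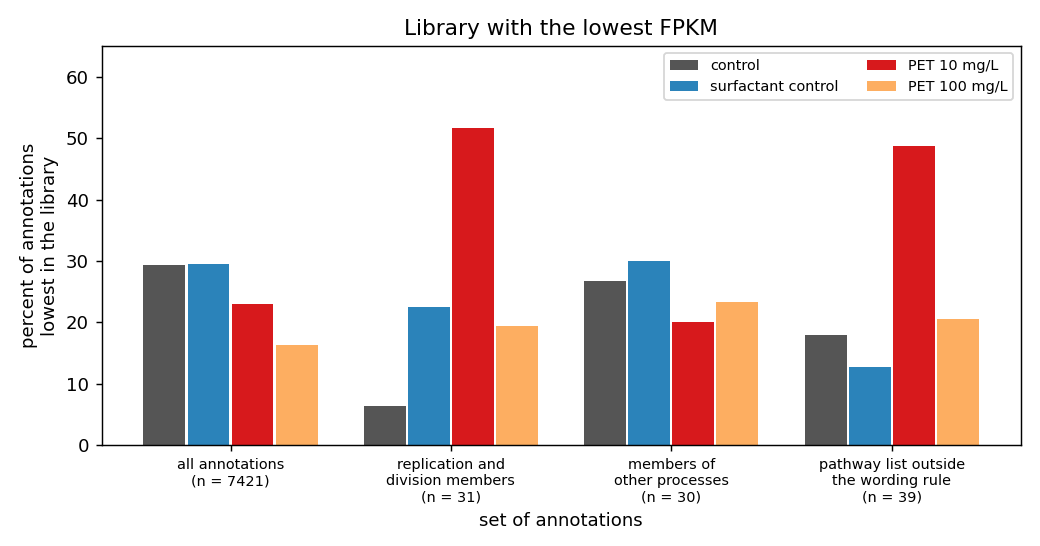
Share of annotations, in percent, that have their lowest level in each of the 4 libraries, for all annotations above the minimum, the replication and division members, the like-named members of other processes and the other pathway genes. At 10 mg/L PET the share is 51.6% for the replication and division members and 23.1% for all annotations.

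The ratios to the surfactant control give the same values on a log2 scale, taken of FPKM plus 0.5. At 10 mg/L the median over the 31 replication and division proteins was -0.09, beside 0.03 over all annotations, and over the 11 DNA synthesis proteins it was -0.14. At 100 mg/L these medians were 0.04, 0.08 and 0.02. Against the untreated control the medians at 10 mg/L were -0.16 for the 31 and -0.21 for the 11, beside 0.03 for all, and at 100 mg/L they were 0.00 and 0.07, beside 0.08. The surfactant control itself lay at -0.06 for both groups against the control, beside 0.00 for all. Between the PET libraries the 31 had a median of 0.14 and the 11 one of 0.21 in favour of 100 mg/L, beside 0.05 for all. The comparisons share libraries, so they are not separate pieces of evidence. For reading single proteins, annotations of 3 to 10 FPKM had a median absolute log2 ratio of 0.16 between 10 mg/L and the surfactant control and 0.15 between the libraries without fibres.

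Few members were 1.5-fold apart between libraries. At 10 mg/L against the surfactant control 2 of 61 were at least 1.5-fold higher and 1 lower, beside 7.02% and 4.99% of all annotations. At 100 mg/L these were 4 higher and 2 lower, beside 8.07% and 4.82%. Between the libraries without fibres, the surfactant control had 0 higher and 5 lower, beside 6% and 5.4%. Against the untreated control, 10 mg/L had 0 higher and 4 lower, beside 7.07% and 4.39%, and 100 mg/L had 1 higher and 3 lower, beside 8.6% and 4.03%. Between the PET libraries 4 were higher and 1 lower at 100 mg/L, beside 6.35% and 5.26%. The members' shares, between 0% and 8.20%, were near or under those of all annotations. CENPP and NCAPG were the 2 replication and division proteins among them, and the others were like-named members at under 5 FPKM. Both PET libraries together were 1.5-fold from both libraries without fibres for 0 members higher and 1 lower, beside 1.23% and 0.512% of all annotations. That member was CDK16, a kinase of neurons and testis in mammals, at 1.87, 1.68, 0 and 0.66 FPKM; being listed at 0 at 10 mg/L, it has no fold there.

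**Figure D4:**
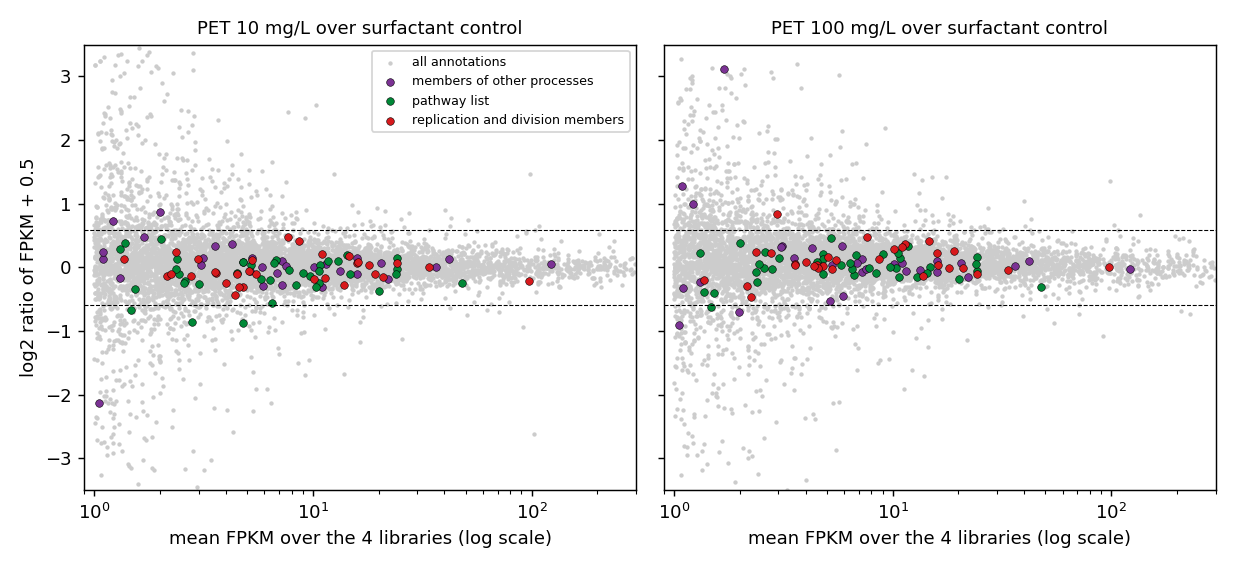
Log2 ratio of each PET library to the surfactant control against mean FPKM (log scale), with all annotations in grey and members in colour. Some annotations lie outside the axes; at higher levels both the cloud and the members narrow towards 0, and the members past 1.5-fold lie at the low end.

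The like-named members were mostly level across libraries. Cyclin I, found in non-dividing cells of mammals, was the most abundant of all members, at 127, 119.7, 124 and 118 FPKM. The cyclins and kinases that act on RNA polymerase II also varied little. Cyclin T2 was at 40.04, 40.2, 44.2 and 43.0 FPKM, and its kinase CDK9, which releases paused polymerase, at 12.7, 13.9, 13.3 and 13.4. CDK12 was at 10.4, 9.92, 9.93 and 10.4, and CDK13 at 7.69, 7.49, 7.63 and 7.36 FPKM. Cyclin L1, a splicing-linked cyclin, was lowest in the control at 31.8 FPKM, with 37.7, 38.0 and 38.2 in the treated libraries, although a second entry was at 16.6, 16.3, 15.1 and 15.5. A second CDK9 annotation was at 3.18, 3.22, 4.22 and 3.61 FPKM, highest at 10 mg/L, a log2 ratio of 0.34 over the surfactant control. The annotation named CDK9-A was at 1.73, 0.50, 1.16 and 1.5 FPKM, and both of its ratios past 1.5-fold over the surfactant control go with the low value there.

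Several atypical members differed more. Cyclin Y, a membrane-bound cyclin, was at 3.41 and 3.81 FPKM without fibres and 5.09 and 4.82 with them, log2 ratios of 0.38 and 0.30 over the surfactant control. These values sum 8 low contigs. The main one, at 1.01, 1.46, 1.33 and 1.29 FPKM, was above the control but below the surfactant control in both PET libraries. FAM58A (cyclin M), the partner of CDK10, was at 6.56, 6.82, 5.46 and 4.89 FPKM, lower in both PET libraries. CDK10 itself was at 5.45, 5.49, 5.50 and 7.05 FPKM. CDK18, a relative of CDK16, was at 2.44, 1.54, 3.22 and 0.76 FPKM, with the PET libraries on opposite sides of the surfactant control. CCNYL1, a relative of cyclin Y, was at 3.94, 2.51, 2.59 and 3.27.

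The repair and other polymerases were scattered. Polymerase beta (POLB), which fills short gaps in base excision repair, was at 10.4, 11.8, 9.48 and 12.4 FPKM, again lowest at 10 mg/L. Polymerase lambda (POLL), of end-joining repair, was at 7.09, 6.90, 7.46 and 7.58 under one entry and at 8.20, 7.54, 6.15 and 7.11 under another. Polymerase kappa (POLK), which copies past lesions, was at 1.2, 1.5, 1.29 and 1.21 FPKM. The annotation of polymerase sigma (PAPD7), in fact an RNA-tailing enzyme, was at 1.06, 1.17, 1.34 and 0.83. AURKAIP1 was at 21.8, 23.9, 21.1 and 21.5 FPKM, and CDCA4 at 20.4, 19.8, 20.9 and 20.8, both close to level. CCAR1, which carries the Gene Ontology term cell cycle, was at 14.9, 15.3, 17.1 and 16.4, or 114.8% of the control at 10 mg/L. AURKAIP1, CDCA4 and CCAR1 were grouped by hand as like-named members.

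Genes of the same pathway outside the 13 wordings were taken from a list of 56 items, of which 30 had an annotation, giving 55 annotations and 39 above the minimum. At 10 mg/L against the surfactant control 0 of the 39 were at least 1.5-fold higher and 3 lower, and at 100 mg/L 0 were higher and 1 lower, beside the shares of all annotations given for these comparisons. The surfactant control had 2 higher and 0 lower against the control. The 10 mg/L library was the lowest for 19 of the 39, which is 48.7%, beside 23.1% of all annotations. The median log2 ratio of the list to the surfactant control was -0.09 at 10 mg/L and 0.00 at 100 mg/L.

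Several of those lowest at 10 mg/L act beside PCNA at the fork. FEN1, which trims the primers of the lagging strand, was at 21.8, 22.1, 17.02 and 19.6 FPKM. PRIM2, the large subunit of the primase, was at 7.23, 7.10, 4.68 and 6.98 FPKM, although PRIM1, the small subunit, was at 8, 7.81, 7.62 and 7.79. DNMT1, which copies methylation onto new DNA, was at 10.6, 11, 8.79 and 10.9, and its guide UHRF1 at 10.0, 8.56, 6.98 and 8.07 FPKM. PRC1, which bundles the central spindle at division, was at 4.80, 5.93, 3 and 5.51 FPKM, the lowest ratio of the list at 10 mg/L, a log2 ratio of -0.88. These genes were named because they were lowest at 10 mg/L, so their higher values at 100 mg/L follow from that choice.

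Others of the list did not follow. TYMS, which makes thymidylate, was at 15.1, 13.8, 15.7 and 12.9 FPKM, and GINS1, a part of the replicative helicase, at 13.5, 12.9, 13.9 and 11.6, both highest at 10 mg/L. RPA3, which coats single-stranded DNA, was at 49.2, 53.8, 45.3 and 43.6 FPKM, lower in both PET libraries than in those without fibres. The origin licensing factor CDT1 was at 3, 2.23, 2.50 and 1.84, and thymidine kinase TK1 at 1.53, 1.90, 1.39 and 1.31. ORC2, of the origin recognition complex, was at 1.72, 2, 1.1 and 1.12 FPKM under one entry and at 0.79, 1.2, 1.65 and 1.55 under another, so its entries ran in opposite directions. MDM2, a ubiquitin ligase, was likewise at 1.48, 3.94, 1.96 and 3.87 under one entry and at 11.8, 10.0, 10.4 and 11.1 under a more abundant one.

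Of the 16 annotations of the list that act in mitosis, grouped after their values were seen, 9 were highest at 100 mg/L, 3 in the control, 2 with Tween 80 and 2 at 10 mg/L. Of all annotations, 39.6% were highest at 100 mg/L. Neither count was repeated with median-of-ratios scaling. That scaling divides the 100 mg/L values by 1.05, beside 0.98 for the control, 0.98 with Tween 80 and 1.00 at 10 mg/L. Divided so, MAD2L1, at 10.07 FPKM with Tween 80 and 10.1 at 100 mg/L, would be higher with Tween 80. The same holds for KIF4A and ANAPC7. The count of 9 therefore depends on the scaling and would be smaller with it, and the share of all annotations may depend on it too. The kinetochore subunit SPC25 was at 4.50, 4.76, 4.90 and 6.76 FPKM, a log2 ratio of 0.46 at 100 mg/L over the surfactant control. KIF23, a kinesin of the central spindle, was at 10.3, 10.2, 9.87 and 12.1 FPKM, and KIF4A, a chromosome kinesin, at 6.43, 6.53, 5.60 and 6.87. Of the anaphase-promoting complex, ANAPC13 was at 11.8, 10.5, 11.3 and 13.4, and ANAPC11 at 2.56, 2.57, 2.15 and 3.12, both highest at 100 mg/L. CDC26, at 25.5, 23.3, 25.8 and 22.5 FPKM, and ANAPC16, at 15.2, 15.0, 13.9 and 15.2, were not. The kinesin KIF11, which pushes spindle poles apart, was at 7.5, 6.07, 6.59 and 7.02 FPKM, and the checkpoint kinase BUB1B at 4.82, 4.38, 4.1 and 4.69, both highest in the control. BUB1, its relative, was at 1.64, 3.1, 2.55 and 3.06, highest with Tween 80. The cohesin subunit SMC1A was at 23.5, 23.7, 23.2 and 26.6 FPKM, and RAD21, another, at 0.99, 1.46, 2.07 and 1.00. CHEK2, a DNA damage kinase, was at 8.63, 8.80, 8.28 and 10.3 under its main entry and 2.19, 1.5, 2.23 and 2.12 under another.

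The 42 members below the minimum gave no comparison. Of these, 6 were listed at 0 in every library, namely RRM2, cyclin D2, CDKN1A, the mitochondrial topoisomerase TOP1MT and second entries of POLD2 and POLE2, and 28 in all had a 0 in some library. An exact 0 in such a file can be a failed estimate. Just below the minimum stood a second entry of CDK13, at a mean of 0.95 FPKM, and just above it CDK16, at 1.05. Of the 81 distinct protein names, 22 were spread over more than 1 annotation, so a name's RNA can be divided between entries, as for MCM5, CENPS, CDK1 and TOP2A. The second entries of CDK1, at 0.29, 0.18, 0.17 and 1.2 FPKM, and of TOP2A, at 1.05, 0, 0 and 0, add to the 100 mg/L and the control value of their main entries.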

How the data were processed

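RNA of whole larvae was sequenced as 4 libraries, 1 per group. The deposited values are FPKM per contig, per the file headers; bcl2fastq 2.20.0.422, Bowtie and RSEM are the tools listed in the submitters' processing notes, and the assembly and annotation steps are not given in the sources used here. The column of the surfactant control was matched by its initials. Values were used as deposited and summed over all contigs of an annotation, entries of different species apart. Annotations with a mean of at least 1 FPKM were compared by log2 ratios of FPKM plus 0.5, which understates differences of low values, at a fold of 1.5, in 6 comparisons (Python 3.11.15, pandas 2.3.3, numpy 2.4.6), and the calculation was checked on simulated data. Relative depth is the peak of the ratios to the control among contigs with at least 0.3 FPKM in both libraries and a mean under 3. With 1 library per group no test was made. Named genes were the key replication and cycle proteins, the 4 most abundant per role, the 6 highest and 6 lowest ratios per comparison, members past 1.5-fold in both PET libraries, and the ends of the pathway list; a few others were named after their values were seen. Members and lists were chosen with earlier results of these data known, and roles were assigned by hand from the annotations. Motifs were not searched, as no sequences were used here. Some genes that the naming rule takes are not reported here.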

Additional observations from a re-analysis of the deposited data

How the results depend on the processing

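No paired analysis was possible because each group held 1 library, and for the same reason no library could be left out. The share of replication and division members lowest at 10 mg/L PET ran from 36.7% to 60.0% over the alternatives, and the median log2 ratio of the 61 members kept within 0.1 of the reported one in every comparison. Counts of members are given as higher and lower, for Tween 80 over the control, each PET library (10, then 100 mg/L) over Tween 80, each over the control, and 100 over 10 mg/L, where they moved by over 1.5 times. Shares of all annotations past the fold were taken at the main setting only. The counts below therefore have no such share beside them and cannot be read as particular to the members. A ratio of 5 to 4 in place of 1.5 gave 1 and 9, 7 and 2, 10 and 6, 3 and 11, 7 and 7, and 12 and 5. With no filter they were 5 and 18, 13 and 7, 15 and 9, 5 and 12, 7 and 13, and 12 and 10. A fold of 2 left 1 lower in the surfactant control, 0 higher at 10 mg/L and 0 lower at 100 mg/L over it, and 1 lower at 10 mg/L over the control. A mean of at least 3 FPKM left 1 lower in the surfactant control and 1 lower in each PET library over the control, and 0 elsewhere, with 7 members lowest at 100 mg/L. The main contig alone, or contigs of at least 1 FPKM, gave 3 lower in the surfactant control and 2 lower at 100 over 10 mg/L, and a pseudocount of 0.1 also 2 there. A pseudocount of 1 gave 1 higher at 10 mg/L and 1 lower at 100 mg/L over the surfactant control. Without the like-named members, 2 were lower in the surfactant control and 2 at 10 mg/L over the control, 1 was higher at 100 mg/L over the surfactant control, 1 lower over the control and 1 higher over 10 mg/L, with 0 in the rest, and the lowest library was the control for 2, the surfactant control for 7 and 100 mg/L for 6. The remaining alternatives were chosen after seeing the data or bear on the lowest library. Summed by protein name, 2 members were higher at 100 mg/L over the control. A mean of at least 5 FPKM left 10 members lowest with Tween 80, 13 at 10 mg/L and 7 in the 100 mg/L library, and 8 of 18 replication and division members at 10 mg/L. Median-of-ratios scaling moved the control's count to 6 and that of 100 mg/L to 22, as this library's values are scaled down most. The 61 members were then lowest at 100 mg/L for 36.1% and at 10 mg/L for 34.4%, beside 27.9% and 23.6% of all annotations. The 10 mg/L library thus no longer led for all members. Their median log2 ratio at 100 mg/L over the surfactant control went from 0.04 to -0.05. The replication and division count at 10 mg/L stayed 16, which is 51.6%. The causes of the other movements were not tested. Of 167 values of single members past 1.5-fold under the alternatives, 161 stayed past it, 6 did not and 0 reversed. The filters and the removal of like-named members cannot change a member's ratio. The contig settings cannot change a member with a single contig. Part of the 161 was therefore fixed in advance and is no measure of how robust the ratios are. Ratios of members under 3 FPKM are the least certain. All annotations of 1 to under 3 FPKM had a median absolute log2 ratio of 0.29 between the libraries without fibres, beside 0.15 for those of 3 to 10. Whether depth accounts for this was not tested.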

Other observations

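The deposited table also attaches Gene Ontology terms to annotations, which the wordings did not use. Of the 61 members compared, 12 carry the term DNA replication, and their summed level was 176 FPKM in untreated larvae, 169 with Tween 80, 148 at 10 mg/L and 172 at 100 mg/L of PET. The 10 mg/L library was the lowest for 7 of these 12 (58.3%), and for 15 of the 49 members without the term (30.6%), beside 23.1% of all annotations. The 12 include POLB, POLK and PAPD7, while MCM5, POLA1 and POLE4 lack the term. The terms divide the same 61 members, so these counts overlap those given by role. The 18 members with the term cell division summed to 140.2, 134.3, 140.0 and 151 FPKM in the same order of libraries. The 10 mg/L library was the lowest for 6 of them (33.3%), beside 23.1% of all annotations. Sums are led by the most abundant members, PCNA for the first term.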
